A study of Mus musculus with 46 samples.

Results

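The 10 genes described here read out or receive hedgehog and fibroblast growth factor (FGF) signals, and were followed across single reporter-labelled cells of the mouse cochlea. They were taken from the table by symbol, and all 10 of the 10 symbols were found among its 29871 genes: Ptch1, Gli1, Gli2, Gli3, Fgfr1, Fgfr2, Fgfr3, Dusp6, Spry1 and Spry2. All 46 cells came from C57BL/6 mice at postnatal day 10 with the genotype Dio2creERt2:Ai6, which the labels' protocols give as heterozygous for the Cre allele. In such mice a tamoxifen-dependent Cre made from the Dio2 locus, the gene of the type 2 deiodinase that makes active thyroid hormone, switches on a fluorescent reporter that then stays on in the cell and its descendants. Fluorescence therefore marks past as well as present use of Dio2. Cells were freed with papain and picked singly by hand under a microscope, so the cells describe what was picked and not the make-up of the tissue. All cells carry the same group label and none is tied to an animal. They were therefore treated as a single sample without any significance test, and each standard deviation (SD) is over cells.

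Hedgehog ligands bind the receptor Patched (Ptch1) and so release Smoothened, which acts through the primary cilium on the Gli transcription factors. Gli2 and Gli3 are the main switches, while Gli1 and Ptch1 are themselves induced by the signal and serve as its classical readouts. FGF ligands act through the receptor tyrosine kinases Fgfr1 to Fgfr3 and the MAP kinase cascade, which induces its own brakes, among them the ERK phosphatase Dusp6 and the Sprouty proteins Spry1 and Spry2. Indian hedgehog and FGF signalling are both known for their roles in bone formation, and Fgfr3 is known in the cochlea for its role in supporting cells of the hearing epithelium.

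Cells were divided by 3 marker genes measured in CPM, the reads of a gene scaled to the total of its library. The 12 Ibsp-high cells had at least 1000 CPM of Ibsp, which encodes bone sialoprotein of bone-forming cells. The 9 Otos-high cells had at least 1000 CPM of Otos, the fibrocyte gene of otospiralin, and the 4 C1qb-high cells had at least 500 CPM of C1qb, a complement gene of macrophages. No cell met more than 1 limit, and 21 cells remained. The limits fell in wide gaps. For Ibsp the lowest cell inside had 7618 CPM and the highest outside 107 CPM, for Otos 1213 and 112 CPM, and for C1qb 3048 and 148 CPM. The marker lists were read without these 3 genes and without the markers Otor, Coch, Car3 and Col2a1, which, like Ibsp and Otos, were at 10 CPM or more in all 46 cells. Of the other markers, 10 of 10 for osteoblasts were at 10 CPM or more in at least 50% of the Ibsp-high cells, 4 of 4 for fibrocytes in the Otos-high cells and 7 of 7 for macrophages in the C1qb-high cells. The remaining cells had 1 of 10 osteoblast, 1 of 4 fibrocyte, 2 of 6 chondrocyte, 3 of 6 general fibroblast and 0 of 7 macrophage markers at that share, and so were given no cell type. The Ibsp-high cells also had 1 of 4 fibrocyte, 1 of 6 chondrocyte and 3 of 6 general fibroblast markers, and the Otos-high cells 2 of 6 chondrocyte and 4 of 6 general fibroblast markers. The number in a cell's title followed the class. Cells 1 to 12 were the Ibsp-high cells and cells 43 to 46 the C1qb-high cells, so what the numbering stands for and the class cannot be told apart.

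Reads in the listed genes numbered 2522853 to 10350249 per cell, with class medians of 4507834 in Ibsp-high, 5081203 in Otos-high, 5333920 in remaining and 4331867.5 in C1qb-high cells. Abundant markers showed low values outside their class. For Ibsp, Otos and the 3 C1q genes, the median outside the class came to 0.179% to 0.686% of that gene's mean in the 46 cells. At the higher of these shares the level would be 2.07 CPM for Fgfr1 and 1.62 CPM for Fgfr2, and less for each other member. A gene was therefore counted as detected in a cell at 10 CPM or more. That limit rests on medians. Single cells outside the C1qb-high class reached 148 CPM of C1qb and 99.5 CPM of C1qc, so single detections near 10 CPM are not shown to lie above such values.

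The members divided into 2 genes found in most cells and 8 found in few. Fgfr1 was detected in 40 of 46 cells (87.0%, exact 95% interval 73.7% to 95.1%) and Fgfr2 in 26 (56.5%, 41.1% to 71.1%). Ptch1, Gli3 and Dusp6 were each detected in 10 cells (21.7%, 10.9% to 36.4%), Gli1 in 7, Gli2 and Fgfr3 in 4, Spry1 in 2 and Spry2 in 1. These intervals cover counting error over cells only. The median cell had 3.5 of the 10 members in the Ibsp-high class, 2 in the Otos-high and remaining classes and 1 in the C1qb-high class. The heat map by cell shows the broad receptor rows and the scattered hedgehog and feedback rows.

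**Figure D1:**
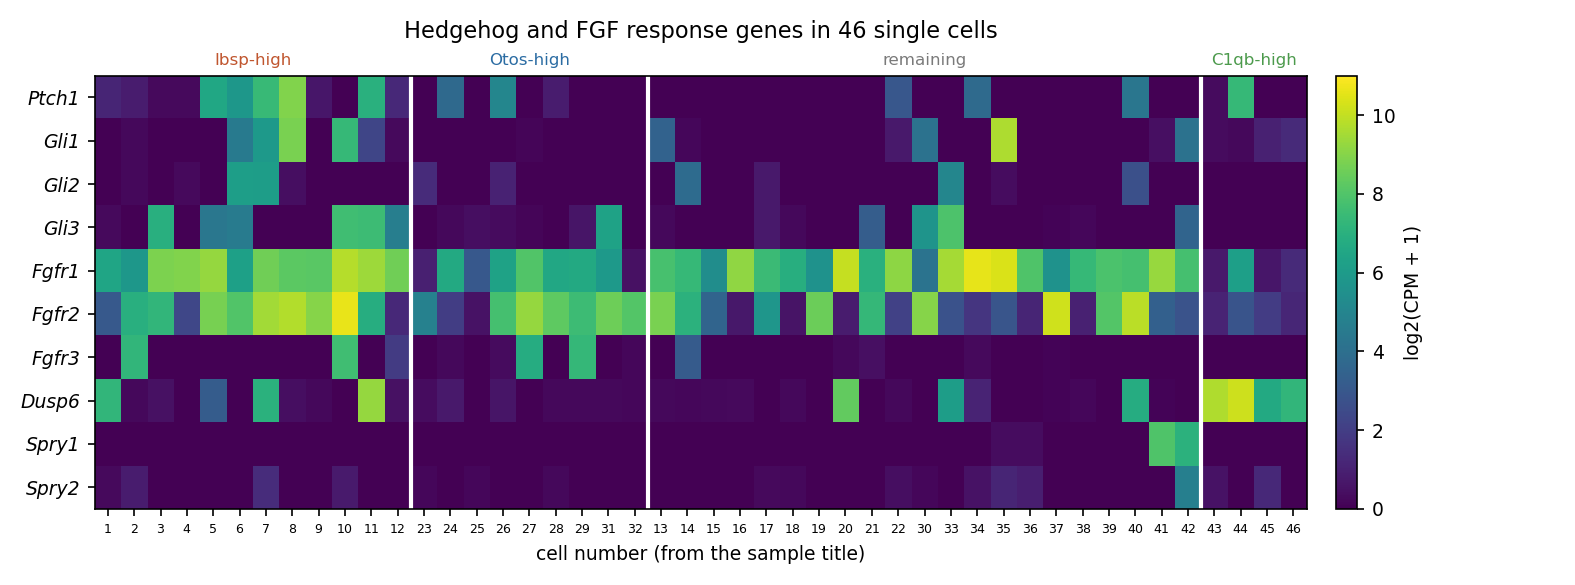
Level of the 10 members as log2(CPM + 1) (colour) in each of the 46 cells (columns, ordered by class and then by the number in the title; white lines divide the classes). Fgfr1 is detected in 40 cells and Fgfr2 in 26, while Dusp6 is bright in all 4 C1qb-high cells and Spry1 in 2 remaining cells.

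Ptch1 (NCBI Gene 19206, chromosome 13, 63508328 to 63573460 on GRCm38, minus strand), the hedgehog receptor and a direct target of the pathway, was detected in 5 of 12 Ibsp-high, 2 of 9 Otos-high, 2 of 21 remaining and 1 of 4 C1qb-high cells. In the Ibsp-high cells the values ran from 0 through a median of 1.29 to 487 CPM. Cell 8 had 487 CPM, cell 7 had 171, cell 11 had 127, cell 5 had 92.6 and cell 6 had 55.3. The Otos-high detections were far lower, at 31.96 CPM in cell 26 and 12.5 CPM in cell 24, and those of the remaining cells were 19.1 CPM in cell 40 and 12.8 CPM in cell 34. Cell 44 of the C1qb-high class stood apart from the other 3, with 163 CPM of Ptch1 where they had at most 0.233 CPM.

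Gli1 (NCBI Gene 14632, chromosome 10, 127329882 to 127341579, minus strand), the transcriptional readout of the pathway, was detected in 4 of 12 Ibsp-high cells, at 436, 166, 59.2 and 21.2 CPM in cells 8, 10, 7 and 6. It was detected in 3 of 21 remaining cells and reached its highest value of all there, 801 CPM in cell 35, with 16.8 CPM in cell 30 and 16.5 CPM in cell 42. None of the 9 Otos-high cells exceeded 0.124 CPM, and the 4 C1qb-high cells had 0.194 to 1.51 CPM. Gli1 overlaps Arhgap9 on the opposite strand, and the strand used in counting is not given in the sources used here. In the 7 cells with Gli1, Arhgap9 was at 0 to 1.93 CPM. Cell 35, the highest in Gli1, had the osteoblast genes Sp7 and Dmp1 at 726 and 2936 CPM. Its other osteoblast markers were at 0.881 to 43.7 CPM.

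Gli2 (NCBI Gene 14633, chromosome 1, 118834061 to 119054405, minus strand), the main activator of the pathway, was detected in 4 cells. These were cells 6 and 7 of the Ibsp-high class, at 71.2 and 68.3 CPM, and cells 33 and 14 of the remaining class, at 32.6 and 13.3 CPM. Gli3 (NCBI Gene 14634, chromosome 13, 15463723 to 15730026, plus strand), which acts mainly as the repressor when the pathway is off, was detected in 6 of 12 Ibsp-high cells. Cells 10, 11 and 3 had 194, 185 and 120 CPM of Gli3, and cells 12, 6 and 5 had 25.2, 22.9 and 19.8 CPM. Outside that class Gli3 was detected in 3 of 21 remaining cells, with 246 CPM in cell 33, 50.1 in cell 30 and 10.51 in cell 42, and in 1 of 9 Otos-high cells, at 81.0 CPM in cell 31. No read of Gli2 or Gli3 was present in any of the 4 C1qb-high cells.

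At least 1 of these 4 hedgehog genes was detected in 8 of 12 Ibsp-high, 3 of 9 Otos-high, 7 of 21 remaining and 1 of 4 C1qb-high cells. At least 2 were found together in 9 cells. Of these 6 were Ibsp-high and 3 remaining, while no Otos-high cell held more than 1. Ptch1 and Gli1 were found together in 3 cells, numbers 6, 7 and 8, all Ibsp-high. They were apart in others. Cell 10 had 166 CPM of Gli1 with no read of Ptch1, cell 35 had 801 CPM with none, and cells 5 and 11 had 92.6 and 127 CPM of Ptch1 with Gli1 at 0 and 3.93 CPM. Over the 46 cells Pearson's r of log2(CPM + 1) between Ptch1 and Gli1 was 0.31 and Spearman's rho 0.18, which in counts this sparse is a description only.

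**Figure D2:**
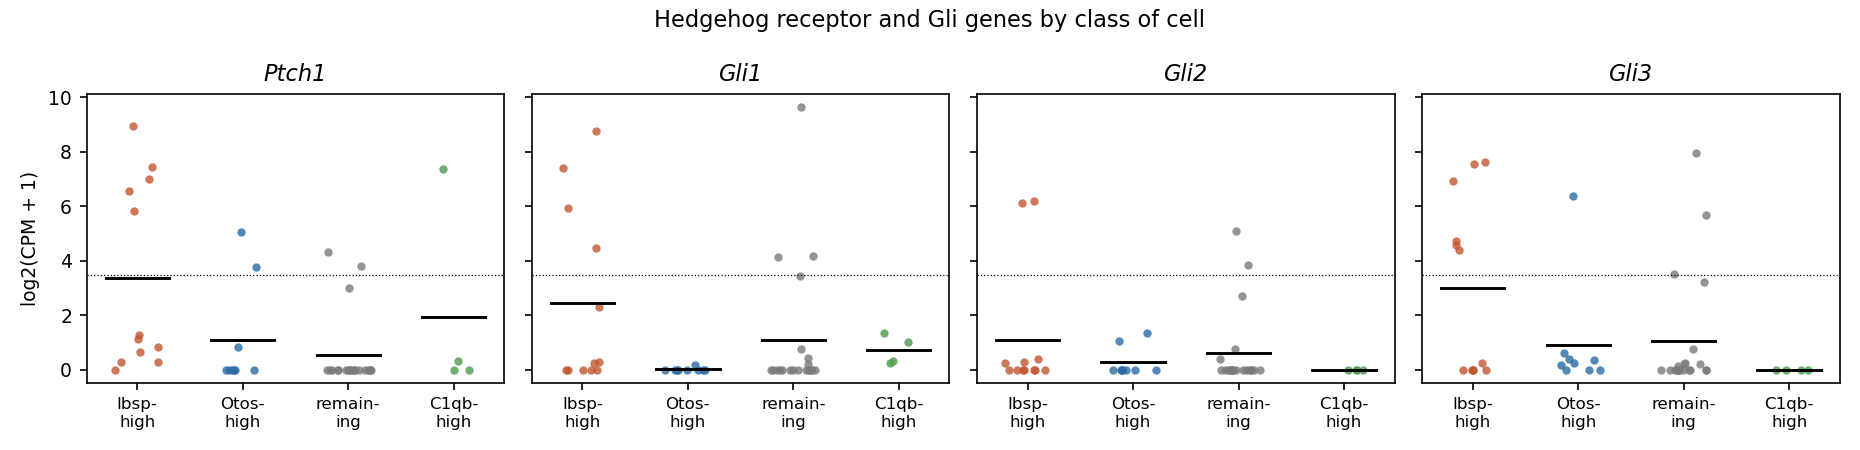
Ptch1, Gli1, Gli2 and Gli3 as log2(CPM + 1) in each cell, by class (points are cells, spread sideways for visibility; bars are class means over 12, 9, 21 and 4 cells; the dotted line is 10 CPM). Each gene is at or near 0 in most cells, and the Ibsp-high class holds 5 of the 10 cells with Ptch1 and 6 of the 10 with Gli3.

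The ligands of the pathway were nearly absent. Of Shh, Ihh and Dhh only Ihh, the Indian hedgehog of skeletal growth, was detected, in 2 cells of the Ibsp-high class. Cell 8 had 2368 CPM of Ihh and cell 7 had 423 CPM, while the other 44 cells stayed at or below 0.698 CPM. The same 2 cells held the highest Ptch1 values of all 46, and both had Gli1, at 436 and 59.2 CPM. Disp1, which releases the ligand from the cell, was at 673 CPM in cell 8 and 0 in cell 7. It was detected in 5 of 12 Ibsp-high, 1 of 9 Otos-high and 1 of 21 remaining cells.

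Smo, the gene of Smoothened, was detected in 29 of 46 cells. These included 8 of the 10 cells with Ptch1 and 4 of the 7 with Gli1. Without Ptch1 it was detected in 21 of 36 cells, and without Gli1 in 25 of 39. Cells 35, 8 and 10, the highest in Gli1, had Smo at 0, 0 and 1.22 CPM. The co-receptor gene Boc was detected in 10 of 12 Ibsp-high, 6 of 9 Otos-high and 11 of 21 remaining cells, with medians of 185, 74.3 and 21.8 CPM. Gas1, another co-receptor gene, went the other way, with medians of 34.99, 645 and 289 CPM and detection in 6 of 12, 9 of 9 and 15 of 21 cells. Evc2, a cilium gene that relays Smoothened activity, was detected in 6 of 9 Otos-high cells, in 0 of 12 Ibsp-high cells and in 2 of 21 remaining cells. Hhip, a decoy receptor and pathway target, was detected in 6 of 21 remaining cells, with 891 CPM in cell 22 and 831 CPM in cell 21, in 1 Ibsp-high cell (cell 7, 162 CPM) and in no Otos-high cell. Of the 6 remaining cells with Hhip, cells 13, 17, 21, 22, 38 and 42, only cell 42 had Gli1 at 10 CPM, with cell 13 just under at 9.86 CPM, and none had Ptch1 at 10 CPM.

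Fgfr1 (NCBI Gene 14182, chromosome 8, 25518759 to 25575718, plus strand), a receptor gene of mesenchymal cells, was detected in 12 of 12 Ibsp-high and 21 of 21 remaining cells. The Ibsp-high cells had 55.0 CPM at the lowest, 391 at the median and 871 at the highest. The remaining cells had 17.4, 217 and 1549 CPM, with the 3 highest in cells 34, 35 and 20 (1549, 1311 and 1050 CPM). The 9 Otos-high cells had 0.407, 79.4 and 260 CPM, and 3 of them, cells 32, 23 and 25, were under 10 CPM. Of the C1qb-high cells, cell 44 had 72.5 CPM and cells 43, 45 and 46 had 0.698, 0.606 and 1.51 CPM. The ranges of all 4 classes overlapped. The noncoding gene Gm16159 lies over Fgfr1 on the opposite strand and reached at most 27.6 CPM in the cells with Fgfr1. Opposite-strand genes also lie over Fgfr3 (G630022F23Rik), Gli3 (Gm6556), Spry1 (Gm42922) and, beside Arhgap9, Gli1 (Gm47200). In the cells with the member, G630022F23Rik reached at most 11.98 CPM (cell 10) and Gm6556 at most 0.991 CPM (cell 42). Ctbp2 overlaps Fgfr2 on the same strand in the GENCODE annotation.

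Fgfr2 (NCBI Gene 14183, chromosome 7, 130162451 to 130266808, minus strand) was detected in 9 of 12 Ibsp-high, 7 of 9 Otos-high, 10 of 21 remaining and 0 of 4 C1qb-high cells. In the Ibsp-high cells it was under 10 CPM in cells 1, 4 and 12 and between 113 and 1611 CPM in the other 9. In the Otos-high cells it was under 10 CPM in cells 24 and 25, at 27.9 CPM in cell 23 and between 185 and 610 CPM in the other 6. Of the 21 remaining cells 11 were under 10 CPM, with 9.48 CPM at the highest, and 10 had 10.6 to 1168 CPM, so that no gap lay at the limit. All 4 C1qb-high cells were low, at 1.16, 1.30, 2.83 and 6.20 CPM.

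Fgfr1 and Fgfr2 have nearly equal coding lengths of 2499 and 2520 bases, so their levels can be set side by side as CPM per 1000 coding bases. On that scale the Ibsp-high cells had medians of 156 for Fgfr1 and 81.0 for Fgfr2, and each receptor was the higher in 6 of the 12 cells. In the Otos-high cells the medians were 31.8 and 86.1, and Fgfr2 was the higher in 7 of the 8 cells that had either. In the remaining cells they were 87.0 and 3.76, and Fgfr1 was the higher in 14 of 21. The order was the same in each class when the length of all exons was used. At 10 CPM or more, 24 cells had both genes, 16 had Fgfr1 without Fgfr2, and 2 had Fgfr2 without Fgfr1, the Otos-high cells 23 and 32. Across the 46 cells Pearson's r between them was 0.07 and Spearman's rho -0.02.

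**Figure D3:**
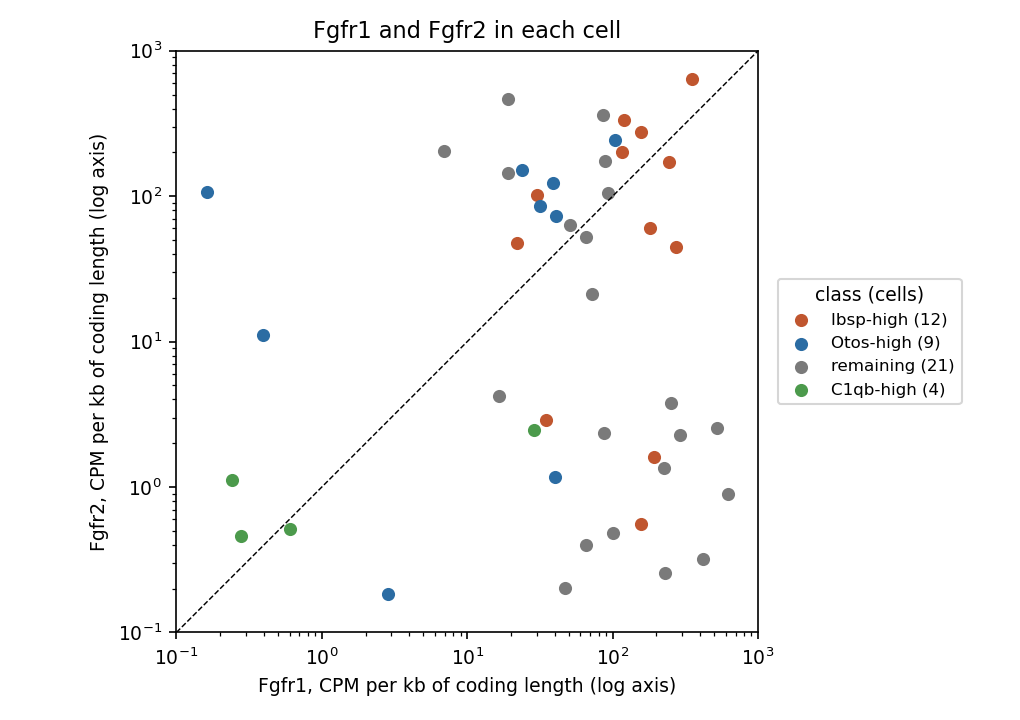
Fgfr1 against Fgfr2 in each of the 46 cells, in CPM per 1000 bases of the longest coding sequence, on log axes (points are cells, coloured by class; the dashed line marks equal levels). Of the Otos-high cells with either gene 7 of 8 lie above the line, while 14 of 21 remaining cells lie below it.

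Fgfr3 (NCBI Gene 14184, chromosome 5, 33721724 to 33737068, plus strand) was detected in 4 cells and clearly present in each. Cells 10 and 2 of the Ibsp-high class had 195 and 149 CPM, and cells 29 and 27 of the Otos-high class had 160 and 112 CPM. The highest value among the other 42 cells was 7.84 CPM, and 33 of the 46 cells had no read. All 4 cells with Fgfr3 also had Fgfr1 and Fgfr2. Of the 6 markers of cochlear supporting cells, Epcam and Sox2 were at 0 in all 46 cells, and Otog was below 10 CPM in every cell, and Prox1 was detected in cell 44 alone. Cdh1 was detected in 12 cells, 6 of them Otos-high, and Fabp7 in 5. Of the cells with Fgfr3, cell 27 had 162 CPM of Cdh1 and 103 CPM of Fabp7, and cell 29 had 50.4 CPM of Cdh1. The part of these markers in the Fgfr3 values was not tested. Fgfr4 was outside the member list and was detected in 5 of 9 Otos-high, 1 of 12 Ibsp-high and 2 of 21 remaining cells, with at most 166 CPM.

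Dusp6 (NCBI Gene 67603, chromosome 10, 99263231 to 99267489, plus strand), the ERK phosphatase induced by MAP kinase activity, was the 1 member detected in all C1qb-high cells. Cells 43, 44, 45 and 46 had 821, 1134, 101 and 150 CPM. Among the Ibsp-high cells it was detected in 3 of 12, at 604 CPM in cell 11, 151 in cell 1 and 130 in cell 7. Among the remaining cells it was detected in 3 of 21, at 326 CPM in cell 20, 111 in cell 40 and 69.3 in cell 33. No Otos-high cell exceeded 0.695 CPM. The values in the C1qb-high cells overlapped those of the single high cells of the other classes. Cell 20 had the osteoblast genes Sp7, Runx2, Dlx5, Phex and Dmp1 at 704, 292, 47.7, 898 and 21980 CPM. Its other osteoblast markers were at 0.647 to 27.7 CPM. All 10 cells with Dusp6 had the early response gene Egr1 at 10 CPM or more, as did 24 of the 36 without it. Egr1 medians were 8585 CPM in C1qb-high, 894 in Ibsp-high, 1599 in remaining and 7.04 in Otos-high cells, and its part in the Dusp6 values was not tested.

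The stretch before the Dusp6 start is shown because ETS factors, which the MAP kinase cascade activates, are the known regulators of this gene. It lies at chr10:99263066-99263184 on the plus strand of GRCm38.p6 (RefSeq), from 165 to 47 bases before the start. Capitals mark the motif CGGAA, which is the ETS core GGAA with a C before it, or its reverse TTCCG. Other matches to GGAA or its reverse TTCC are left in small letters and were not counted.
Dusp6: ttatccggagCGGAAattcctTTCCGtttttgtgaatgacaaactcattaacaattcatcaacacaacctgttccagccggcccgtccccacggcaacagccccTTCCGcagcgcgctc
The motif occurred 3 times in the 250 bases before the Dusp6 start, and 2.12% of the 32851 promoters in the RefSeq table held it at least 3 times (25.2% at least once, either strand). Among the 8 of 10 members with an entry, Gli3 also held it, though fewer than 3 times, and Ptch1, Gli2, Fgfr2, Fgfr3, Spry1 and Spry2 did not. The GLI site GACCACCCA or its reverse TGGGTGGTC was in none of these 8 in that window, and in 0.225% of all promoters. These letters describe the window and not binding.

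The Sprouty genes were almost silent. Spry1 (NCBI Gene 24063, chromosome 3, 37639947 to 37644599, plus strand) was detected in 2 remaining cells, at 249 CPM in cell 41 and 132 CPM in cell 42. It had no read in any Ibsp-high, Otos-high or C1qb-high cell and none in 42 of the 46 cells. Spry2 (NCBI Gene 24064, chromosome 14, 105891947 to 105896819, minus strand) was detected in cell 42 alone, at 25.8 CPM, and did not exceed 1.63 CPM elsewhere. Cells 41 and 42 had the fibroblast gene Dcn at 19448 and 6940 CPM, a gene detected in 40 of the 46 cells. Cell 42 also had the osteoblast genes Runx2 and Dlx5 at 114 and 61.9 CPM, with Sp7 at 0.198 CPM. Dusp6 was at 0.0870 CPM in cell 41 and 0 in cell 42. The related gene Spry4 was also found in 2 cells, at 726 CPM in cell 8 and 638 CPM in cell 33.

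**Figure D4:**
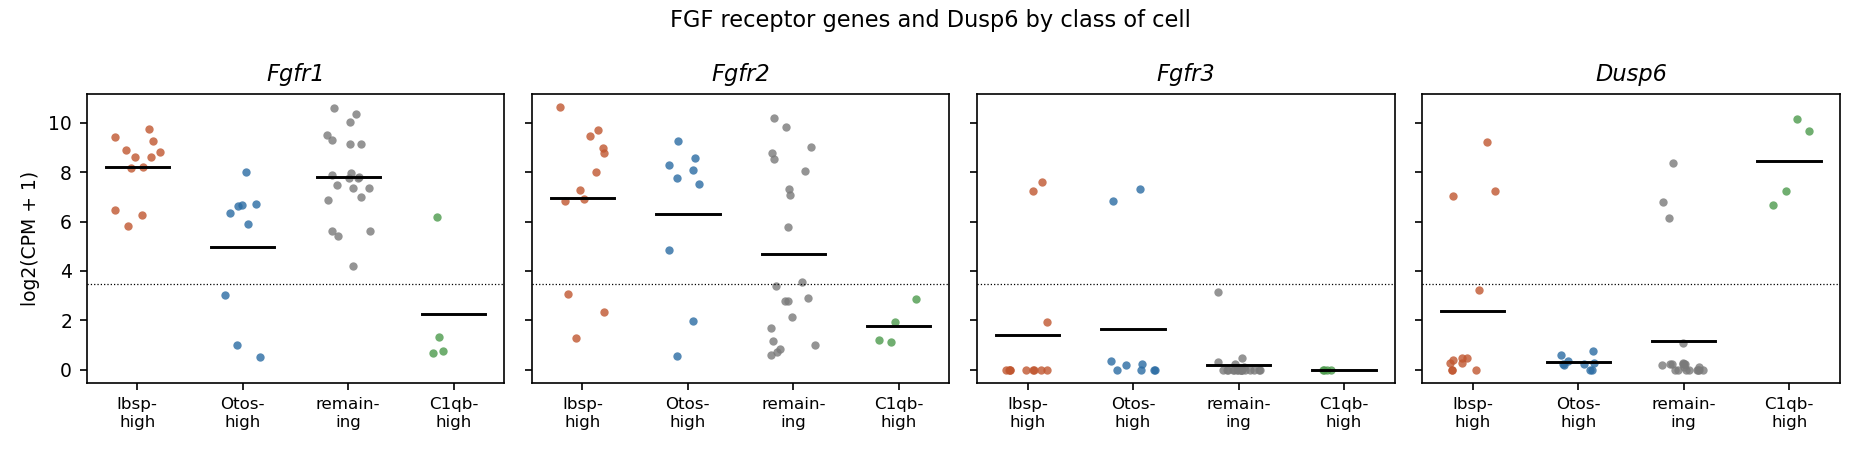
Fgfr1, Fgfr2, Fgfr3 and Dusp6 as log2(CPM + 1) in each cell, by class (points are cells, spread sideways; bars are class means over 12, 9, 21 and 4 cells; the dotted line is 10 CPM). Fgfr1 lies above the line in all Ibsp-high and remaining cells, Fgfr2 lies above it in 26 cells, and Dusp6 is high in all 4 C1qb-high cells and in 6 others.

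Differences between classes are given as differences of mean log2(CPM + 1), a scale on which those of weakly expressed genes come out too small. A gene was called at a difference of at least 2. Of the 10 members, 8 reached 1 CPM in at least 5 cells, the limit for all genes, and Spry1 and Spry2 did not, so the counts below describe those 8. Between Ibsp-high and Otos-high cells, 5 of the 8 were higher in the Ibsp-high cells and 0 lower, where 9.94% of 11447 genes were higher and 8.46% lower. The differences were 3.22 for Fgfr1, 2.43 for Gli1, 2.27 for Ptch1, 2.10 for Gli3 and 2.09 for Dusp6. For Fgfr1 this exceeded the pooled SD of 2.04. The other 4 were smaller than their pooled SDs of 2.51, 2.91, 2.82 and 2.62. The median difference was 2.10 over the 8 members and 0.13 over all genes. With a pseudocount of 10 in place of 1, Fgfr1 alone was called, and with medians in place of means Fgfr1 and Gli3. Thinning the reads to an equal number per cell ended the calls of Ptch1 (1.44) and Gli1 (1.99). It also left out the shallower cells 5 and 8 of the Ibsp-high class, so depth and the loss of these cells are not separated. Scaling by the median ratio ended the calls of Gli3 (1.99) and Dusp6 (1.92), and class limits of 100 CPM that of Gli3 (1.82). Single cells also decided these calls. Ptch1 was under 2 without cell 5, 7, 8 or 11, Gli1 without cell 8 or 10, Dusp6 without cell 1, 7 or 11 and Gli3 without any one of 9 cells.

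Between Ibsp-high and remaining cells, 2 of the 8 members were called, both higher in the Ibsp-high cells (6.31% of all genes were higher and 4.58% lower). Ptch1 differed by 2.82, more than its pooled SD of 2.32, and Fgfr2 by 2.27, less than its pooled SD of 3.31. Gli3 lay just under the limit, at 1.96. Each cell was also thinned to 3522422 reads, which left out the 4 shallower cells 5, 8, 35 and 36. Gli3 was then the 1 member called (2.04), with Ptch1 at 1.91 and Fgfr2 at 1.51. With medians in place of means Fgfr2 and Gli3 were called, at 4.24 and 2.32, and Ptch1 was at 1.20. A pseudocount of 10 also left neither called, and Fgfr2 was at 1.93 without cell 10. Fgfr1 differed by 0.38 between these classes.

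Between Otos-high and remaining cells, 1 of the 8 was called. Fgfr1 was lower in the Otos-high cells, with a difference of -2.85 (mean 4.97 against 7.82, pooled SD 2.06). Of all genes 4.2% were lower by at least 2 and 5.75% higher, 9.95% in all. The difference in medians of Fgfr1 was -1.44, which was not called, and by medians Fgfr2 was called instead, higher in the Otos-high cells. Fgfr2 differed the other way by 1.65, under the limit and under its pooled SD of 3.34. Without cell 24 or 25, the Otos-high cells with the lowest Fgfr2, that difference passed 2 (2.37 without cell 25).

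Between the C1qb-high cells and the other 42, 3 of the 8 were called. Dusp6 was higher by 7.11 (mean 8.43 against 1.32, pooled SD 2.57), where 12.4% of all genes were higher by at least 2. Fgfr1 and Fgfr2 were lower, with differences of -5.07 and -3.899 (pooled SDs 2.25 and 3.25), where 14.2% of all genes were lower. These 3 calls were kept whichever single cell was left out. Without cell 44 the difference of Fgfr1 was -6.39 and that of Dusp6 6.54.

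The counts for the wider pathway lists are to be read beside the share of all genes called in either direction. That share was 18.4% between Ibsp-high and Otos-high and 10.9% between Ibsp-high and remaining cells. It was 9.95% between Otos-high and remaining and 26.6% between C1qb-high and other cells. Of 16 tested FGF receptor and co-receptor genes, 5 were higher and 2 lower in Ibsp-high than in Otos-high cells (median 0.57, all genes 0.13), and 4 higher and 3 lower than in remaining cells. Gpc1, a heparan sulfate proteoglycan gene, was detected in 12 of 12 Ibsp-high cells with a median of 1297 CPM, as against 38.8 CPM in Otos-high and 1.83 CPM in remaining cells. It differed by 6.64 between Ibsp-high and remaining cells, and the syndecan gene Sdc3 by 4.47. Fgfbp1, whose protein frees stored FGF, was lower in Ibsp-high than in Otos-high cells (-4.09), and Gpc6 lower in Otos-high than in remaining cells (-3.31).

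Of 18 genes of FGF ligands that are secreted, 7 were detected in at least 1 cell and 9 had no read in any. Fgf1 was detected in 4 of 9 Otos-high cells, with at most 283 CPM, and in 1 cell each of the Ibsp-high and remaining classes. Higher single values were reached by Fgf18, detected in 2 cells (at most 1021 CPM), and by Fgf9, detected in 1 cell (629 CPM). Fgf13 and Fgf14 belong to the group Fgf11 to Fgf14, whose proteins act mainly inside cells. They were detected in 4 of 12 Ibsp-high cells (Fgf13) and 10 of 21 remaining cells (Fgf14). Fgf14 differed by -3.17 between Ibsp-high and remaining cells, and Fgf13 by 2.702 between Ibsp-high and Otos-high cells.

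Of 12 tested FGF feedback and target genes, Dusp6 included, 5 were higher and 1 lower in Ibsp-high than in Otos-high cells (median 1.88). Against the remaining cells 1 was higher and 0 lower in Ibsp-high cells (median 0.67). In Otos-high against remaining cells 1 was higher and 3 lower (median -0.74). Etv5, an ETS factor gene induced by FGF, was detected in 6 of 12 Ibsp-high and 0 of 9 Otos-high cells and differed by 3.84. Its relative Etv1 went the other way, by -3.46, with detection in 1 of 12 and 5 of 9 cells. The early genes Egr1 and Ier2 belong to this list too. Egr1 was higher by 3.52 in Ibsp-high than in Otos-high cells, and Ier2 was lower in Otos-high than in remaining cells (-3.41). In the C1qb-high cells 7 of the 12 were higher than in all others and 1 lower (median 2.50, all genes -0.47). Of 18 MAP kinase transducer genes 2 were higher and 1 lower in Ibsp-high than in Otos-high cells (median -0.31), close to the share of all genes. Mapk3, an ERK kinase gene, was lower (-2.05), and against the remaining cells Plcg1, the gene of a phospholipase that the receptors activate, was lower (-2.54).

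Among hedgehog genes, 8 targets were tested, of which 3 were higher and 0 lower in Ibsp-high than in Otos-high cells (median 1.93). Apart from Ptch1 and Gli1 the third was Foxc2, higher by 4.65, a transcription factor gene detected in 9 of 12 Ibsp-high, 0 of 9 Otos-high and 14 of 21 remaining cells. Against the remaining cells, 1 of the 8 targets was higher in Ibsp-high cells and 1 lower (median 0.26, all genes 0.09). In Otos-high against remaining cells 0 were higher and 2 lower (median -1.17, all genes -0.05). In Ibsp-high against Otos-high cells, 1 of 6 receptors and co-receptors was higher, Ptch1, and 2 lower, Gas1 (-4.24) and Smo (-2.01). Of 13 transducers 2 were higher, Gli1 and Gli3, and 1 lower, Evc2 (-3.85). Both tested genes of ligand release were higher, Scube1 by 2.75 and Disp1 by 2.01. The 13 tested cilium genes had 0 higher and 0 lower in that comparison (median 0.43). Against the remaining cells Bbs4 was higher by 2.48 in Ibsp-high and Wdr35 by 2.21 in Otos-high cells.

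**Figure D5:**
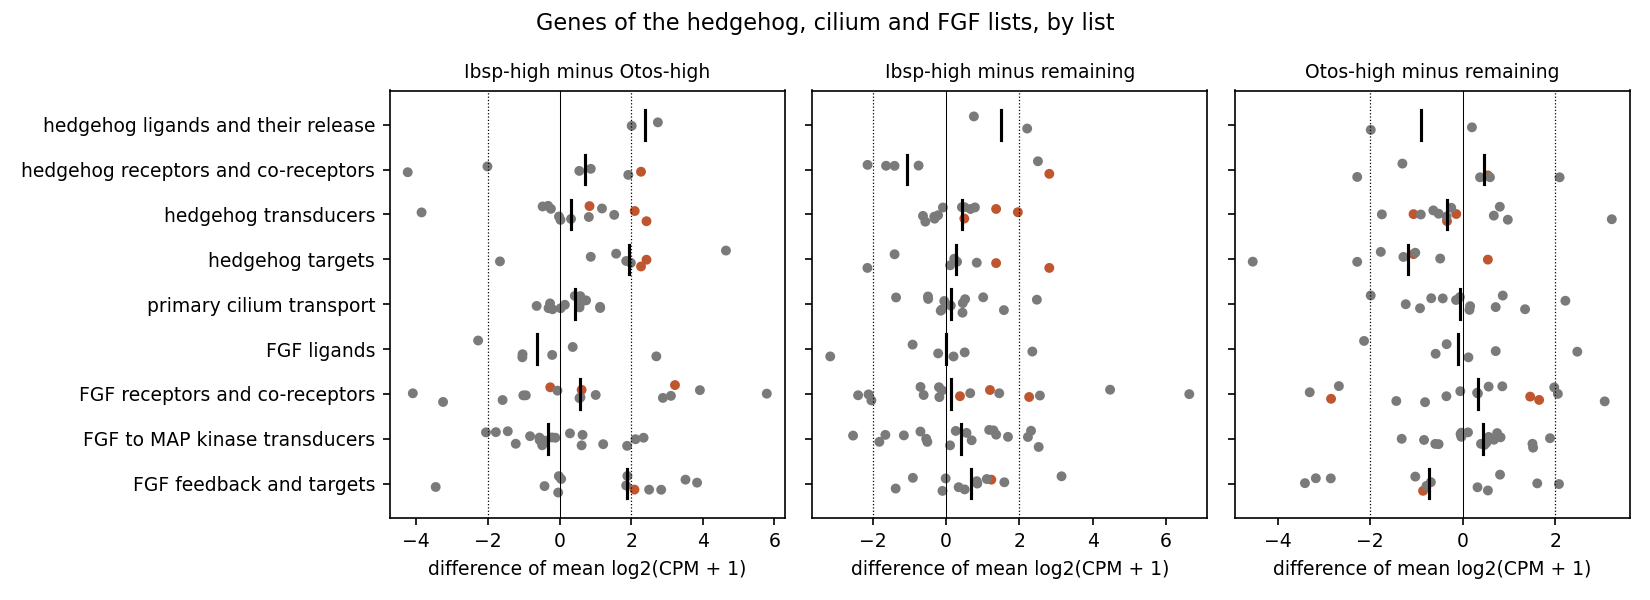
Difference of mean log2(CPM + 1) between classes for each tested gene of the pathway lists (points are genes, members in orange; bars are list medians; dotted lines mark a difference of 2 in either direction). In the first panel Fgfr1 (3.22), Gli1 (2.43) and Ptch1 (2.27) lie to the right of the lines, while Fgfr2 (0.62) and Fgfr3 (-0.26) lie between them.

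The genes whose pattern over the 46 cells was most like that of 4 members were ranked by Pearson's r of log2(CPM + 1) among 7118 genes detected in at least 10 cells. For Ptch1 they were Wif1 (0.57), Elmo1 (0.56) and Zfp263 (0.56), and for Dusp6 Arrb2 (0.64), Ssh2 (0.60) and Pxdc1 (0.60). For Fgfr2 they were Irx3 (0.64), P3h3 (0.59) and Srp72 (0.56). Irx3, a homeobox gene, was detected in 28 cells, which included 24 of the 26 with Fgfr2. For Fgfr3, which rests on 4 cells, they were Ints6 (0.51), Fbxl4 (0.50) and Hist3h2ba (0.50). Spearman's rho was lower for every pair. It was 0.41 to 0.49 for the genes of Ptch1, 0.31 to 0.34 for Dusp6, 0.49 to 0.59 for Fgfr2 and 0.19 to 0.40 for Fgfr3. These values share the cells, their depth and their classes, and are the highest of many.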

How the data were processed

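The table deposited by the authors gives each gene's reads relative to the library's total, in CPM, a unit stated in its header. It covers 29871 genes in 46 single cells. Per the labels' protocols, libraries were made with SMART-Seq v4 and ThruPLEX kits. The tools named in the submitters' processing notes are STAR 2.7.3a and bcl2fastq 2, with GRCm38 (mm10) as the build. How reads were assigned to genes (program, annotation, strand) is not given in the sources used here. Listed genes summed to 86.4% to 93.5% of the library total to which CPM is scaled, and 100% of values above 0 were whole multiples of 1 read per cell, within 0.01 read. No count test was run on these reads, since there is no second sample.

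Members and lists were chosen with earlier results of these data known. Classes used the limits given; differences are of mean log2(CPM + 1) over 11447 genes at 1 CPM or more in at least 5 cells, with no p-value. The genes named are the 10 members, up to 4 per pathway list (largest differences among those past 2 and detected in at least 4 cells), the 3 most alike to each of Ptch1, Dusp6, Fgfr3 and Fgfr2 (without Gm, Rik and LOC symbols), and class markers. Some genes that this rule picks are not reported here. Ihh, Smo, Fgf9, Fgf18, Fgfr4, Spry4 and single cells were described after their values were seen. All 208 listed symbols matched. Of the marker lists, endothelial, pericyte, Schwann, melanocyte, supporting, hair cell and neuron markers at 10 CPM in at least 50% of cells numbered at most 2 in any class. Intervals are exact Clopper-Pearson at 95%. Reads from these amplified libraries without molecular tags cannot be taken as separate molecules. Gene positions are from RefSeq on GRCm38.p6, and coding lengths and opposite-strand genes from the GENCODE annotation of that build. No doublet caller was run on the hand-picked cells. Alternatives were other pseudocounts, filters, class limits, scalings, medians, thinned reads and leaving out each cell. Python 3.11.15, numpy 2.4.6, pandas 2.3.3 and scipy 1.17.1 were used.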

Additional observations from a re-analysis of the deposited data

How the results depend on the processing

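No paired analysis was possible because the labels give 1 group. Of 11 called member differences, 124 values under alternatives were computed. Of these, 0 changed direction and 100 stayed at 2 or more. Part of the 100 could not have failed. Dropping the filter on low values leaves each difference as it was, and the leave-one-out extreme farther from 0 cannot fall short of the main value. The number of members called between Ibsp-high and Otos-high cells was 5, and 1 with a pseudocount of 10, 2 with medians, 3 with scaling by the median ratio, 3 with thinned reads, 4 with class limits of 100 CPM and 2 to 5 leaving out single cells. Against remaining cells it was 2 for Ibsp-high cells, and 4 with a pseudocount of 0.1, 0 with 10, 1 with class limits of 100 CPM, 1 with thinned reads, 6 at a limit of 1 log2 unit and 1 to 3 leaving out single cells. It was 3 without 3 remaining cells with at least 2 of Sp7, Runx2 and Dlx5, an alternative chosen after seeing the data. For Otos-high against remaining cells it was 1, and 2 with a pseudocount of 0.1, 4 at 1 log2 unit and 1 to 2 leaving out single cells. For C1qb-high cells it stayed between 3 and 4. Their median number of members detected was 1, and 4 at a limit of 1 CPM. The share of all genes called between Ibsp-high and Otos-high cells ranged from 5.55% with a pseudocount of 10 to 45.2% at 1 log2 unit. Between Ibsp-high and remaining cells this share was 22.5% with a pseudocount of 0.1 and 36.9% at 1 log2 unit, and between Otos-high and remaining cells 21.5% and 35.5%, so the larger member counts there stand beside more calls among all genes. Scaling by the median ratio moved the median gene between C1qb-high and other cells from -0.47 to -0.06.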
